A study of Mus musculus with 7 samples.

Results

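The cholesterol synthesis genes described here are Hmgcs1, Idi1, Fdps, Fdft1, Sqle and Lss, which encode enzymes of the pathway, and Insig1, which encodes a regulator of it. They were taken by symbol, 7 of the 31053 genes counted in a single-cell RNA series of the developing mouse ovary, and each symbol matched a single row. All 7 had UMIs in the libraries, from 3251 UMIs of Lss to 56207 of Hmgcs1 over the cells kept.

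Cholesterol is built in most cells from acetyl-CoA by a long chain of enzymes. Hmgcs1 makes HMG-CoA, Idi1 and Fdps build the isoprenoid farnesyl diphosphate, Fdft1 and Sqle make squalene and its epoxide, and Lss closes the ring to give lanosterol, the first sterol. When sterols in the endoplasmic reticulum are scarce, the escort protein Scap carries the factor Srebf2 to the Golgi, where Mbtps1 and Mbtps2 cut it, and the freed part switches on the genes of the whole chain. Insig1 holds Scap back when sterols are plentiful and is itself a target of the pathway it restrains. In the ovary, granulosa cells are known to supply cholesterol to the oocyte, and steroid-producing cells use it as starting material.

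The study followed how pregranulosa cells, the somatic cells that will surround each oocyte in a follicle, arise in the fetal ovary. A library was made from untreated wild-type C57BL/6J mice at each of 7 ages, with gonads of several animals pooled in each. The library at E11.5 came from gonads of both sexes. The other 6, 4 before birth and 2 after it, were described as ovaries, though that of E12.5 held Y-linked UMIs, as given below. Trypsin treatment lasted 20 min for the youngest pair (E11.5 and E12.5), 40 min for the next (E14.5, then E16.5), 60 min for E18.5 and 80 min for the postnatal pair (P1, then P5), so between these steps age and dissociation time cannot be told apart, while the ages within a pair had the same time. With 1 library per age no age has a replicate, and no test was made. Levels are given in CPM, the UMIs of a gene summed over the cells of a class and scaled to a common total, and the 95% intervals of levels and ratios cover counting error only.

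Of 52542 barcodes, 50823 with at least 200 genes were kept, 3848 to 11060 per library, with medians of 6349 to 11060 UMIs per cell. Cells were clustered within each library without the 7 genes and the further gene lists counted below. Markers such as Gng13 and Foxl2 were not left out. Clusters were named from marker genes as germ (5725 cells), pregranulosa (13640), epithelium (2936), stroma (13107) and endothelium (579). Another 8658 cells (17.0%) stayed unnamed, including 39.6% of the E11.5 library. Unnamed clusters included 988 P1 cells that scored highest for stroma, where the class held 914. Others were 810 E14.5 cells with Upk3b and Gng13 (304 in epithelium) and 162 P5 cells led by Inha and Amh. At E12.5 an unnamed cluster of 134 cells led by Cst9, Aard and Amh had Y-linked UMIs in 77.6% of cells. In E12.5 clusters of the compared classes this share was 6.19% in germ and 0.763% to 4.396% in pregranulosa cells. It was 0.529% to 9.06% in epithelium and 1.72% to 28.0% in stroma. The E12.5 levels below, the base of the P5 to E12.5 ratios, include the cells of these named clusters. Whether such UMIs came from male cells or stray RNA was not tested. A class entered a comparison in a library where it held at least 50 cells. Germ and pregranulosa cells were compared from E12.5 to P5, since the E11.5 library gave 42 germ cells and no pregranulosa cluster. With classes set instead by 2 marker genes per cell, 201 E11.5 cells, from gonads of both sexes, counted as pregranulosa. Their summed level of the 7 genes was 642 CPM (interval 609 to 676). By that division the later pregranulosa sums ran from 315 CPM at E12.5 to 573 CPM at E16.5, all lower than at E11.5. Epithelium could not be named at P1, nor were 50 endothelial cells found at E12.5. The marker pairs set germ and pregranulosa cells apart from each other. Dazl was at 443 to 1286 CPM in germ against 1.6 to 19.2 CPM in pregranulosa cells. Wnt6 was at 293 to 481 CPM in pregranulosa against 3.5 to 18.54 CPM in germ cells. The clusters were named from these markers, so this is no separate check. The epithelium class was less pure, since its summed level of the 7 pregranulosa markers was 320 CPM at E12.5 and 2958 CPM at E18.5. Its Wnt6 level at P5, 296 CPM, was like the 293 CPM of pregranulosa cells. Its stroma markers summed to 1576 CPM at E14.5. At E11.5, 637 of its 1054 cells were in a cluster led by Kctd14, Akr1cl and Ifitm1, which are not among the epithelium markers used. Wnt6 was at 115 CPM in the class at that age. In the P1 library epithelial keratin genes were among the leading genes of a pregranulosa cluster. The endothelium class at P5 also held immune markers at 205 CPM in sum, against 1.4 CPM at E16.5. In stroma the pregranulosa markers summed to 95.5 CPM at E11.5 and 745 CPM at E16.5, and Foxl2 was at 165 CPM at P5. A stroma cluster of 332 E16.5 cells had Upk3b and Krt19 among its leading genes. Its summed level of the 7 genes was 282 CPM, against 139 CPM in the lowest stroma cluster of that library.

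The E16.5 library stood apart from the others. It shared 0 to 3 cell barcodes with each of the other libraries, which shared 20 to 131 with each other, and 907 barcodes of 49901 distinct ones were found in more than 1 library. Between its neighbours in age, 7.25% of 9099 genes were at least 1.5-fold above both in every class compared at E16.5 and 1.48% at least 1.5-fold below both, whereas 0.133% to 0.397% were above and 0.0778% to 0.862% below in the E14.5, E18.5 and P1 libraries. None of the 7 genes was in either group. What sets this library apart was not tested.

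On the genome build GRCm38, Hmgcs1 lies at chr13:119690379-119708260 and Idi1 at chr13:8885501-8892451, both on the plus strand. Fdps occupies chr3:89093588-89101959 and Fdft1 chr14:63145150-63179578, both on the minus strand, and Sqle (chr15:59315077-59331192), Lss (chr10:76531588-76557138) and Insig1 (chr5:28071363-28078662) are on the plus strand. The GENCODE annotation has exons of another gene on the same strand within 1 of the 7, since Gm43738 shares 1124 exonic bases with Fdps, and reads from the shared part cannot be told apart. Gm43738 held 35 UMIs in all against 45275 for Fdps. Exons of Ctsb cover 774 exonic bases of Fdft1 from the other strand, and the 10x chemistry used here keeps the strand.

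Start regions are shown because the freed part of Srebf2 is known to act through sterol regulatory elements, often beside CCAAT boxes. RefSeq start regions on GRCm38.p6, each of 300 bases with 250 before the start and 50 after it, were found for 4 of the 7 genes, and those of Fdps, Fdft1 and Sqle are not shown. Capitals mark matches on either strand to a sterol regulatory element (TCACNCCAC), a CCAAT box (CCAAT, read as ATTGG on the other strand) and an E-box (CACGTG), and no matches overlapped. The regions are chr13:119690101-119690400 for Hmgcs1, chr13:8885356-8885655 for Idi1, chr10:76531355-76531654 for Lss and chr5:28071162-28071461 for Insig1, all on the plus strand.
Hmgcs1: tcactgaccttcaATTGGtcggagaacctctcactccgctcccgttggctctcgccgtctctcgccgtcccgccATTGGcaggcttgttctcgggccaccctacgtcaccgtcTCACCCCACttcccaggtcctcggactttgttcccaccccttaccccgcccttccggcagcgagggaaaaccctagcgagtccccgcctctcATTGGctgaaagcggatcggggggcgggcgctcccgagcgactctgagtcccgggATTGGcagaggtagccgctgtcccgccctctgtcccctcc
Idi1: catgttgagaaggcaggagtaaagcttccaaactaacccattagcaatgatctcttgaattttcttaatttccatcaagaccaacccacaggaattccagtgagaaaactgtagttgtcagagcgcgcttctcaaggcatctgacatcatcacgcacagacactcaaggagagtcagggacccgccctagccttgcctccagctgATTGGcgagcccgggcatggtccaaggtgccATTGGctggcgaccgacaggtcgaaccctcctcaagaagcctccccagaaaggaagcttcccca
Lss: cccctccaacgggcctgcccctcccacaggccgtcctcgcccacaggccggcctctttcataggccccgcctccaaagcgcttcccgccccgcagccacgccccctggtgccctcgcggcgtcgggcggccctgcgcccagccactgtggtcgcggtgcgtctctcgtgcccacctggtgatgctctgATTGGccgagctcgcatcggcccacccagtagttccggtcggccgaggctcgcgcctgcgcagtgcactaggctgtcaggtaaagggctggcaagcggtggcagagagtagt
Insig1: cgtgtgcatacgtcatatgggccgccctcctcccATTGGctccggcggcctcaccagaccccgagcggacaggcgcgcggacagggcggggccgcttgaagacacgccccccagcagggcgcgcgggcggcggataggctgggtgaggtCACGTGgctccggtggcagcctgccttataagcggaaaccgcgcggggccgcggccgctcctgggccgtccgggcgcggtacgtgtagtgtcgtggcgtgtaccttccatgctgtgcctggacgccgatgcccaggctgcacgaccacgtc
The Hmgcs1 region held a sterol regulatory element that begins 137 bases before the start, a match found in 1.24% of 32851 start regions of the same length. All 4 held a CCAAT box, as did 37.4% of all regions, with 4 in Hmgcs1, 2 in Idi1 and 1 each in Lss and Insig1. Insig1 alone of the 4 held an E-box, at 101 bases before the start, which 7.15% of regions also held. These are matches of letters and no measure of binding.

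Summed over the 7 genes, germ and pregranulosa cells exchanged places between ages. From E12.5 to P5 the summed level was 454, 553, 165, 248, 351 and 487 CPM in germ cells. In pregranulosa cells of the same libraries it was 312, 370.3, 568, 494, 463 and 309 CPM. Germ cells were therefore the higher of the pair at E12.5, E14.5 and P5, and the lower at E16.5, E18.5 and P1. The ratio of germ to pregranulosa cells was 1.49 (95% interval 1.46 to 1.53) at E14.5, 0.291 (95% interval 0.282 to 0.301) at E16.5 and 1.58 (95% interval 1.49 to 1.66) at P5. In 3 of 6 libraries the interval lay below 1 and in the other 3 above it, and without E16.5 the count below 1 was 2 of 5. The direction could rest on single genes: without Fdps the ratio at E14.5 was 0.845, and without Hmgcs1 the ratio at P1 was 1.51. At P5 Fdft1 made up 227 of the 487 CPM in germ cells and 21.2 of the 309 CPM in pregranulosa cells. The P5 ratio without Fdft1 is not given here.

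**Figure D1:**
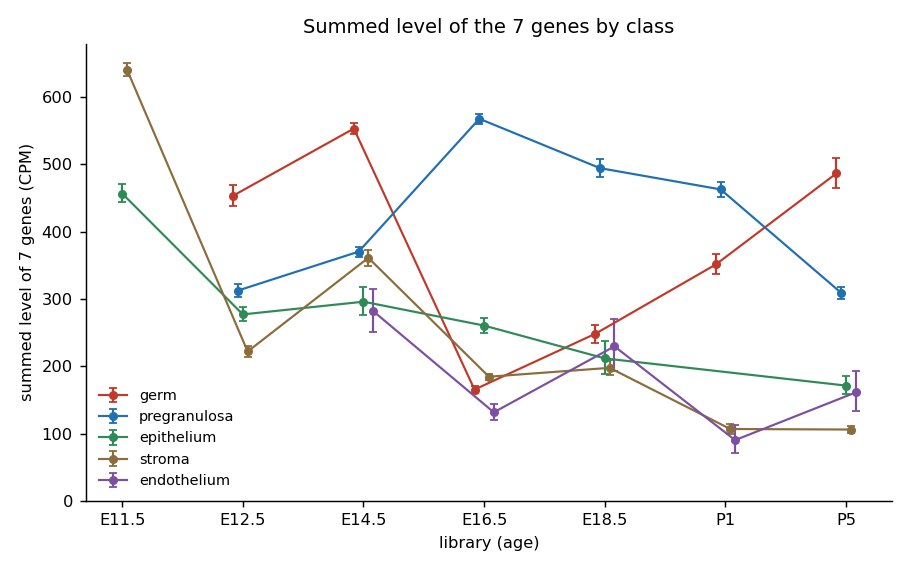
Summed level of the 7 genes (vertical axis, CPM) in each library from E11.5 to P5 (horizontal axis) for 5 cell classes, with 1 point per class and library and bars for the 95% Poisson interval of counting error. Germ cells were at 553 CPM at E14.5 and 165 CPM at E16.5, while pregranulosa cells were at 568 CPM at E16.5, and stroma was at 641 CPM at E11.5 and 106 CPM at P5.

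The other somatic classes were mostly below pregranulosa cells. In stroma the sum was 641, 222, 361, 184, 198, 107 and 106 CPM from E11.5 to P5. Its ratio to pregranulosa cells had an interval below 1 in 5 of 6 libraries (4 of 5 without E16.5), with E14.5 as the exception at 0.975 (95% interval 0.939 to 1.01) and P1 as the lowest at 0.231 (95% interval 0.213 to 0.248). Epithelium was at 457, 277, 296, 260.4, 212 and 171 CPM in the same order without P1, and was lower than pregranulosa cells in 5 of 5 libraries, by ratios from 0.428 to 0.887 (4 of 4 without E16.5). The value of 457 CPM is that of the mixed E11.5 class described above. Without Hmgcs1 in the sum, epithelium was lower in 3 of 5, and its ratio at E12.5 was 1.01. Endothelium at E14.5 was then at 1.02. The few endothelial cells gave 282, 132, 229.5, 90.2 and 161 CPM from E14.5 to P5, lower than pregranulosa cells in 5 of 5 libraries with ratios from 0.195 to 0.761 (4 of 4 without E16.5).

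Hmgcs1, the enzyme that makes HMG-CoA early in the chain, was higher in pregranulosa than in germ cells at all 6 ages compared. Its level in pregranulosa cells was 127, 148, 294, 196, 259 and 134 CPM from E12.5 to P5, and in germ cells 63.5, 53.0, 48.3, 35.3, 44.1 and 50.1 CPM. No germ value reached the lowest pregranulosa value, and the ratio of germ to pregranulosa cells lay between 0.164 at E16.5 and 0.5003 at E12.5, with the interval below 1 in 6 of 6 libraries (5 of 5 without E16.5). Stroma held 36.2 to 173 CPM, with the high end at E11.5, and epithelium 72.4 to 143 CPM. Stroma, epithelium and endothelium were each below pregranulosa cells in every library in which they were compared.

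Idi1, which interconverts the pair of branched isoprenoid units, was at like levels in both lineages at E12.5 and lower in germ cells from E16.5 on. Germ cells held 35.6, 54.4, 17.9, 8.18, 3.26 and 7.77 CPM from E12.5 to P5, the P1 value resting on 20 UMIs. Pregranulosa cells held 36.5, 28.3, 57.1, 61.1, 27.4 and 17.1 CPM. Germ cells were higher at E14.5, at a ratio of 1.92 (95% interval 1.77 to 2.10), and lower at the 4 later ages, down to 0.119 (95% interval 0.0719 to 0.186) at P1. At E12.5 the interval, 0.840 to 1.13, included 1.

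Fdps, which makes farnesyl diphosphate, the branch point to sterols and to other isoprenoids, led in early germ cells. Its germ level was 202, 299, 20.6, 70.0, 84.4 and 102 CPM from E12.5 to P5, against 66.2, 68.9, 79.9, 74.9, 98.9 and 89.6 CPM in pregranulosa cells. The germ values at E12.5 and E14.5 were above every pregranulosa value, and the E16.5 germ value was below every one. Germ cells at E14.5 held 4.33 (95% interval 4.12 to 4.56) times the pregranulosa level, at E16.5 0.257 (95% interval 0.234 to 0.282) times and at P5 1.14 (95% interval 1.02 to 1.28) times. Between E14.5 and E16.5 the germ level was lower by a factor of 14.51 (95% interval 13.3 to 15.9). At E18.5, in a library that did not stand apart, it was still lower than at E14.5 by a factor of 4.27 (95% interval 3.85 to 4.74). Stroma was also lower in the E16.5 library than in those of E14.5 and E18.5, at 21.4 CPM against 83.01 and 31.0 CPM. Epithelium was at 28.9 CPM against 69.4 and 37.7 CPM, the latter within counting error.

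Fdft1, or squalene synthase, commits farnesyl diphosphate to sterols, and in germ cells it was highest at P5. Germ cells held 65.6, 57.5, 18.46, 64.0, 113 and 227 CPM from E12.5 to P5. Pregranulosa cells held 21.2 to 40.0 CPM. The ratio of germ to pregranulosa cells was above 1 with its interval in 5 of 6 libraries (5 of 5 without E16.5), reached 5.20 (95% interval 4.55 to 5.95) at P1 and 10.7 (95% interval 9.43 to 12.1) at P5, and was 0.721 (95% interval 0.645 to 0.805) at E16.5. The genes on either side of farnesyl diphosphate were highest in germ cells at different ages, with Fdps at 299 CPM and Fdft1 at 57.5 CPM at E14.5, and 102 and 227 CPM at P5.

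Sqle, the oxygen-dependent enzyme that makes squalene epoxide, was moderate throughout. Levels were 49.7, 36.8, 23.1, 21.8, 18.4 and 20.4 CPM in germ cells and 28.7, 33.2, 49.9, 53.3, 24.9 and 27.8 CPM in pregranulosa cells from E12.5 to P5. Germ cells were higher at E14.5 and at E12.5, there at a ratio of 1.73 (95% interval 1.503 to 1.99), and lower in the 4 later libraries, by up to the E18.5 ratio of 0.409 (95% interval 0.334 to 0.498). Lss, lanosterol synthase, had few UMIs, with levels of 5.05 to 11.2 CPM in germ and 3.40 to 11.6 CPM in pregranulosa cells. The Lss ratio had an interval above 1 in 3 of 6 libraries (3 of 5 without E16.5), below 1 at E16.5 and around 1 at P1 and P5, so at this depth a difference after birth was not detectable.

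Insig1, the brake on the pathway, went in opposite directions in germ and pregranulosa cells between E18.5 and P5. Pregranulosa cells held 26.3, 47.8, 49.9, 65.9, 26.4 and 15.1 CPM from E12.5 to P5 and germ cells 25.2, 46.1, 27.8, 41.4, 83.1 and 73.4 CPM. Germ and pregranulosa cells were within counting error of each other at E12.5 and E14.5. Germ cells were lower at E16.5 and E18.5, then higher, at a ratio of 3.14 (95% interval 2.75 to 3.59) at P1 and 4.87 (95% interval 4.09 to 5.80) at P5. From E18.5 to P5 the pregranulosa level was lower by a factor of 4.37 (95% interval 3.78 to 5.06) while the germ level was 1.77 (95% interval 1.48 to 2.12) times as high.

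**Figure D2:**
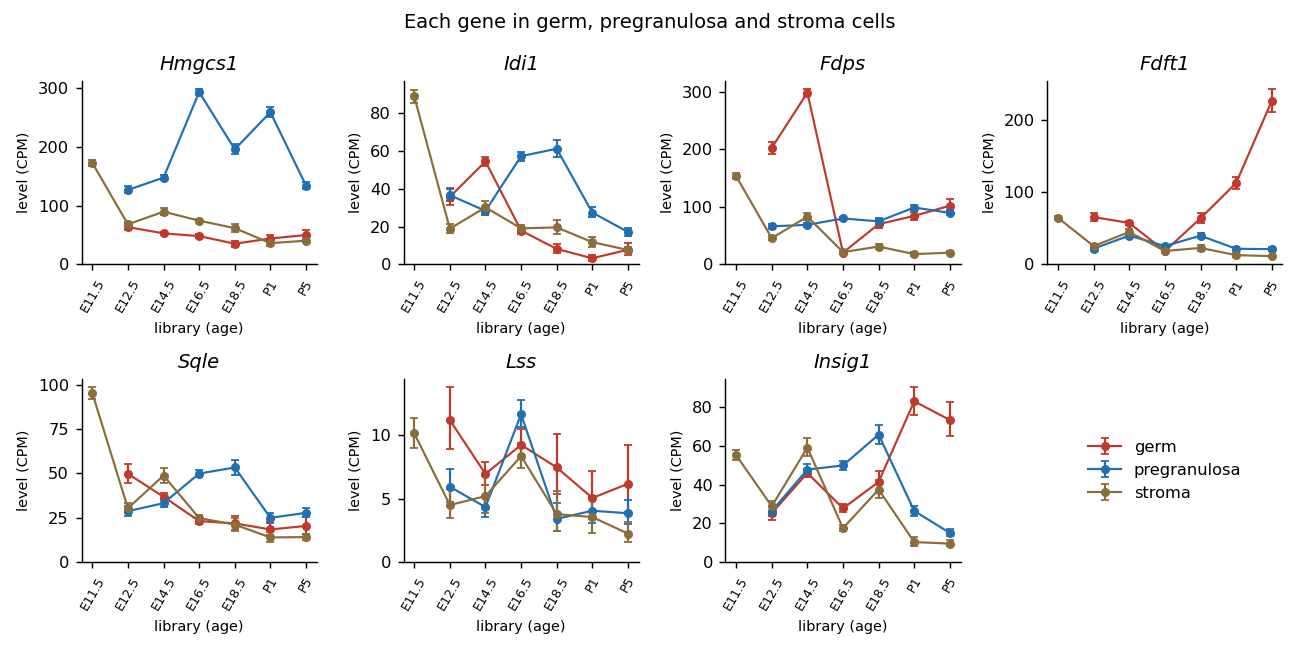
Level of each gene (vertical axis, CPM, scales differ between panels) by library (horizontal axis) in germ, pregranulosa and stroma cells, with bars for the 95% Poisson interval of counting error. Hmgcs1 stays above germ and stroma cells in pregranulosa cells from E12.5 to P5, Fdps is at 299 CPM in germ cells at E14.5, and Fdft1 and Insig1 are at 227 and 73.4 CPM in germ cells at P5.

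Over all 42 pairs of a gene and a library, the interval of the germ to pregranulosa ratio lay below 1 in 20, above 1 in 16 and included 1 in 6. Without E16.5, 13 of 35 pairs lay below 1. Of these 42 pairs, 37 reached 10 CPM over both classes pooled, and of the 37, 20 lay below 1 and 13 above (13 and 13 of 30 without E16.5), where 47.2% of all gene and library pairs lay below and 41.6% above. By a fold of at least 2, 12 of the 37 were lower in germ cells and 7 higher (8 and 7 of 30 without E16.5), against 29.4% and 20.7% of all pairs. At E14.5, 1 of 6 genes past this filter, Hmgcs1, was at least 2-fold lower in germ cells, where 27.5% of 8052 genes were. These shares are near those of all genes, so what is described is which gene differed at which age, not how often. The median log2 ratio over all genes was -0.29 at E12.5, -0.10 at E14.5 and -0.16 at P5 and within 0.05 of 0 at the other ages.

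**Figure D3:**
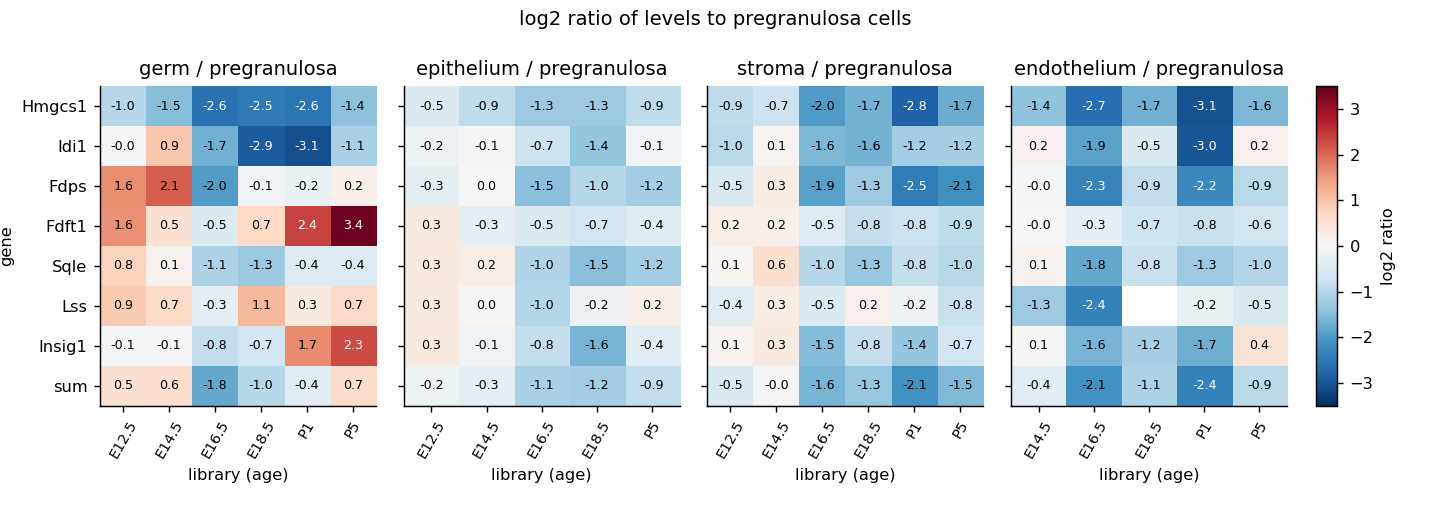
Log2 ratio of the level in each class to that in pregranulosa cells (colour and printed value) for each gene and the sum (rows) and each library (columns), in 4 panels for germ, epithelium, stroma and endothelium. Blue is lower and red higher than pregranulosa cells, and Hmgcs1 is blue in every cell of the 4 panels while Fdft1 is red in germ cells at 5 of 6 ages. The blank square is Lss in E18.5 endothelium, which had no UMI.

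Across the span from E12.5 to P5 the sum returned close to its start in both lineages, while several of its genes did not. In pregranulosa cells the intervals of Hmgcs1, Sqle and Fdft1 included 1 and those of the other 4 genes did not, and in germ cells all 7 excluded 1. The share of all genes whose interval excluded 1 was not counted for this span, so these counts do not set the 7 genes apart. In pregranulosa cells the sum at P5 was 0.989 (95% interval 0.95 to 1.03) times that at E12.5, an interval that includes 1, after a high of 568 CPM at E16.5 and 494 CPM at E18.5. Of 6 genes past 10 CPM, Idi1 was at least 2-fold lower at P5, at a ratio of 0.469 (95% interval 0.405 to 0.542), and none at least 2-fold higher, against 6.03% and 8.55% of 8851 genes. In germ cells the sum at P5 was 1.07 (95% interval 1.01 to 1.14) times that at E12.5. This direction turned under other scalings, to 0.935 with mitochondrial, ribosomal and haemoglobin genes left out of the total. Intervals in germ cells lay above 1 for Fdft1 and Insig1 and below 1 for the other 5 genes. The ratio of the sum without Fdft1 or without Insig1 is not given here. Idi1 and Sqle were at least 2-fold lower in germ cells at P5, at 0.218 (95% interval 0.143 to 0.320) and 0.410 (95% interval 0.316 to 0.525) times, and Fdft1 and Insig1 higher, at 3.46 (95% interval 3.09 to 3.87) and 2.91 (95% interval 2.41 to 3.52) times, where 15% of genes were 2-fold lower and 29.3% higher. Fdps at P5 was 0.504 (95% interval 0.450 to 0.564) times its E12.5 level. The median log2 change of all genes in germ cells was 0.29.

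Stroma ended lower than it began for the sum, with P5 at 0.477 (95% interval 0.449 to 0.507) times E12.5. Stroma at E11.5, in gonads of both sexes, had the highest stroma level of 6 of the 7 genes, such as Idi1 at 88.8 CPM against 7.64 CPM at P5 and Sqle at 95.3 against 14.1 CPM. The share of all genes with their highest stroma level at E11.5 was not counted, so this does not set the 7 genes apart. The class held other cells at that age: its largest cluster there, 1462 of 2693 cells with a sum of 726 CPM, was led by Foxf1, Mab21l2, Hand1 and Nkx2-3, which are not among the stroma markers used. The other clusters of the class there had sums of 540.5 and 528 CPM. Insig1, the exception, was 59.2 CPM at E14.5 and 55.3 CPM at E11.5. In epithelium the sum at P5 was 0.618 (95% interval 0.566 to 0.674) times that at E12.5.

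Within the germ cells of E14.5, clusters with different levels of meiosis genes differed more in Fdps than in Sqle. The cluster led by Dppa3, Dppa5a and Pou5f1, genes of germ cells before meiosis, held 339.7 CPM of Fdps and a sum of 617 CPM in 1179 cells. A cluster of 765 cells with Stra8, the gene that opens meiosis, at 2005 CPM and Sycp3, a part of the chromosome axis, at 603 CPM held 310.4 CPM of Fdps. The cluster with the most Sycp3, 1417 CPM in 405 cells, held 151 CPM of Fdps, 19.8 CPM of Hmgcs1 and 16.7 CPM of Fdft1, against 59.2 and 71.4 CPM in the Dppa3 cluster. Sqle was 38.9, 35.1 and 28.6 CPM in that order, and Idi1 48.8, 70.4 and 47.9 CPM. Fdps was 221 CPM in a cluster of 212 cells, also with Stra8 and with a median of 18141 UMIs. A further cluster of 371 cells with a median of 894 UMIs had a sum of 663 CPM, and the 3 clusters above had median depths of 14989, 11715 and 9533 UMIs in that order, so depth moved with the order and its part was not tested.

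The 121 germ cells of P5 were uneven in depth. The 60 cells above the median of 9165 UMIs held 92.5% of the UMIs of the class, and their summed level of 514 CPM was 3.59 (95% interval 2.62 to 5.04) times the 143 CPM of the shallower 61. Fdft1 was at 240.1 CPM in the deep and 61.0 CPM in the shallow cells, both above the pregranulosa level of 21.2 CPM. Fdps was at 109 and 21.5 CPM. When each cell had equal weight, the germ sum at P5 was 0.675 times that at E12.5 and Fdps was 0.650 times the pregranulosa level, so the P5 germ values describe mainly the deeper cells. At P1, where the deep cells held 91.3% of UMIs, the summed levels were 347 and 393 CPM, and Insig1 was higher in the shallow cells, 175 against 74.4 CPM.

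Pregranulosa cells are known to form several populations, among them cells with Lgr5 and Gng13 near the ovary surface and cells with Foxl2, the transcription factor of granulosa identity, in the inner ovary. In each library the pregranulosa cluster with the highest Gng13 level was set against the one with the highest Foxl2 level, a choice made after the cluster values were seen. The summed level from E12.5 to P5 was 274, 388, 794, 582, 613 and 382 CPM in the Gng13 clusters and 348, 317, 326, 391, 342 and 279 CPM in the Foxl2 clusters. The Foxl2 clusters stayed between 279 and 391 CPM, while the Gng13 clusters ranged from 274 to 794 CPM. Other pregranulosa clusters of a library were not in the pair, and at E14.5 such a cluster, of 1129 cells with Gng13 at 1281 CPM, had a higher sum than either, 422 CPM. The ratio was 0.786 (95% interval 0.738 to 0.838) at E12.5, then above 1 in the other 5 libraries (4 of them without E16.5), with 2.44 (95% interval 2.35 to 2.52) at E16.5, 1.79 (95% interval 1.71 to 1.88) at P1 and 1.37 (95% interval 1.29 to 1.45) at P5. At E16.5 the Gng13 cluster was also deeper, with a median of 13985 UMIs against 11448. In that library the deeper pregranulosa cells had a sum of 643 CPM and the shallower ones 454 CPM. The part of depth in the ratio was not tested.

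Fdft1 did not follow the sum. Hmgcs1 was at 97.3, 167, 387, 232, 361 and 184 CPM in the Gng13 clusters and 152, 127, 182, 148, 178 and 108 CPM in the Foxl2 clusters from E12.5 to P5. Idi1 differed most at E16.5, at 4.87 (95% interval 4.26 to 5.60) times, followed there by Insig1 at 4.29 (95% interval 3.73 to 4.96) times. The intervals of Hmgcs1 and Idi1 lay above 1 in 5 of 6 libraries, of Sqle and Insig1 in 4, of Fdps and Lss in 2 and of Fdft1 in none. Without E16.5 each of these counts but that of Fdft1 was lower by 1, out of 5 libraries. For this pair of clusters the share of all genes whose interval excluded 1 was not counted. These counts therefore do not set the named genes apart from other genes. Fdft1 was lower at P5, at 0.701 (95% interval 0.535 to 0.909). At E12.5 Hmgcs1 was lower in the Gng13 cluster, 0.641 (95% interval 0.578 to 0.711), and both clusters there held Gng13, 361 and 253 CPM. When pregranulosa cells were instead divided by having a UMI of Gng13 or of Foxl2 alone, an alternative chosen after the data were seen, the sum ratios were 0.966, 1.32, 1.98, 1.28, 1.14 and 1.62, with an interval that included 1 at E12.5. Gng13 was also at 10.2 to 100.2 CPM in germ cells and up to 118 CPM in stroma, so a single UMI can be stray RNA and this division is a loose one. At P5 the Gng13 cluster held nearly as much Foxl2 as the Foxl2 cluster, 358 against 429 CPM. The P1 Gng13 cluster also held keratin genes of the surface epithelium, and the P1 ratio of 1.79 between clusters was 1.14 between cells.

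**Figure D4:**
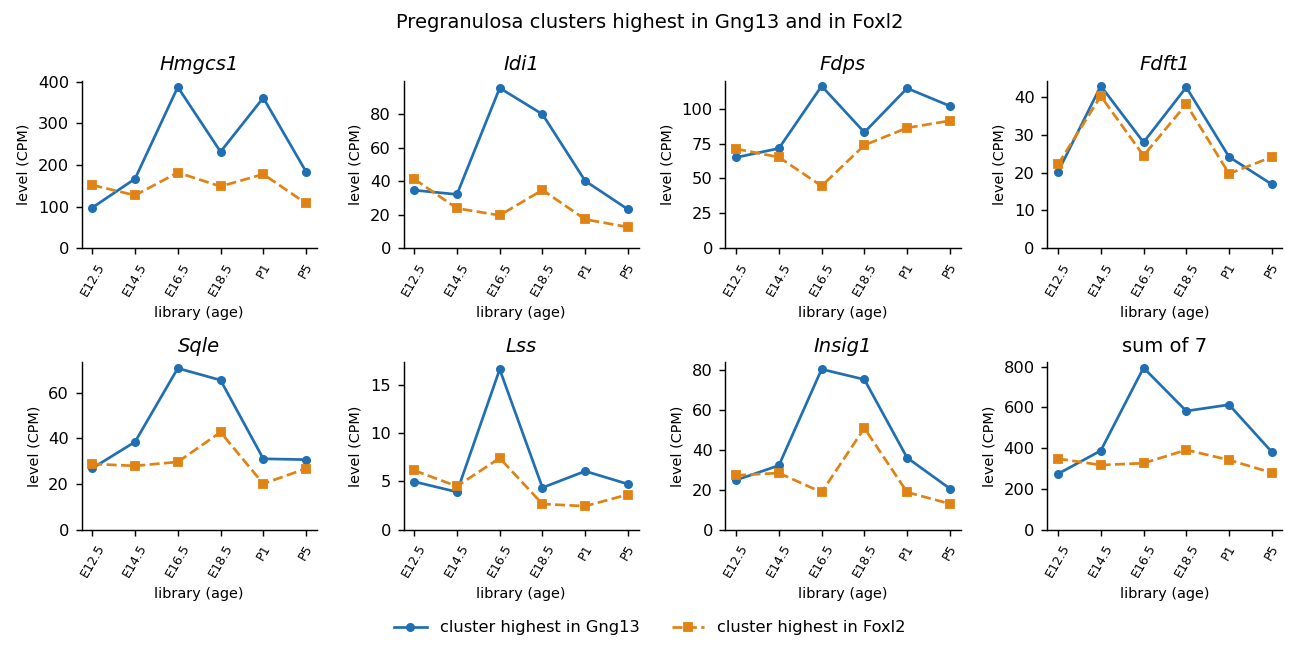
Level of each gene and of the sum (vertical axis, CPM, scales differ between panels) by library (horizontal axis) in the pregranulosa cluster with the highest Gng13 level (solid line) and in that with the highest Foxl2 level (dashed line), 1 cluster per point and without intervals. At E16.5 the sum is 794 CPM in the Gng13 cluster and 326 CPM in the Foxl2 cluster, while Fdft1 is at 28.1 and 24.5 CPM.

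The rest of the synthesis chain was examined in a list of 15 further enzymes, 14 of which reached 10 CPM over germ and pregranulosa cells. By the median over 6 libraries, 6 of 14 were at least 2-fold lower in germ than in pregranulosa cells and 1 at least 2-fold higher, with a median log2 ratio (UMIs with 0.5 added) of -0.71, where 25.8% of 8851 genes were lower and 18.8% higher and their median was -0.03. For the members themselves these were 2 and 1 of 6, with a median of -0.25. Msmo1, which removes methyl groups from lanosterol's products, was at 96.7, 85.4, 299, 152, 235 and 162 CPM in pregranulosa cells from E12.5 to P5 and at 50.5, 23.5, 27.3, 17.3, 8.47 and 10.7 CPM in germ cells. Ebp, a sterol isomerase, was at 31.8, 24.6, 1.52, 1.27, 1.47 and 1.61 CPM in germ cells, so that it was near 0 from E16.5 on, and at 17.9 to 27.4 CPM in pregranulosa cells. Hsd17b7, also a sterol enzyme, had a median log2 ratio of -1.69, and Lbr, a nuclear envelope protein that is also a sterol reductase, was the single enzyme 2-fold higher in germ cells, at 1.74.

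Against stroma, by the median over 6 libraries, 3 of 6 members and 4 of 14 further enzymes were at least 2-fold lower than in pregranulosa cells, where 12.3% of genes were. From E12.5 to P5 in pregranulosa cells, 4 of the 14 enzymes were at least 2-fold lower and none higher, where 6.03% and 8.55% of all genes were. Among them Mvk, mevalonate kinase, changed by -1.36 on the log2 scale and Acat2, the thiolase before Hmgcs1, by -1.25. In germ cells over the same span 6 of the 14 enzymes were at least 2-fold lower and 3 higher, where 15% and 29.3% of all genes were.

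**Figure D5:**
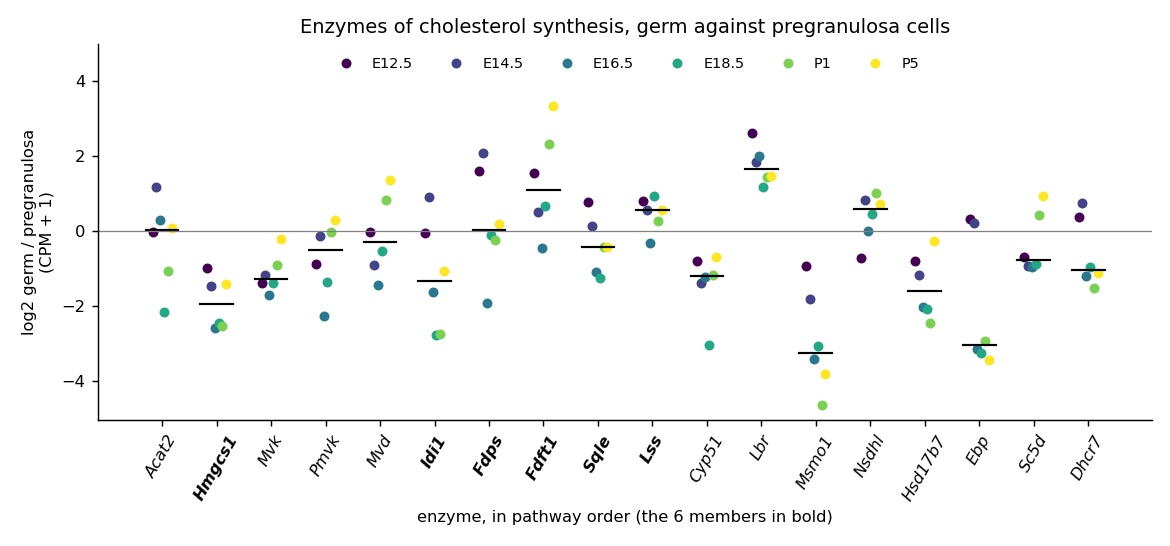
Log2 ratio of germ to pregranulosa level, each with 1 CPM added (vertical axis), for enzymes of cholesterol synthesis in the order of the pathway (horizontal axis, the 6 enzymes among the 7 genes in bold), with 1 point per library coloured by age and a black line at the median of 6 libraries. Hmgcs1 and Msmo1 lie below 0 at all 6 ages, Lbr lies above 0 at all 6, and Fdps is spread from well above 0 at E14.5 to well below 0 at E16.5.

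Genes of sterol sensing and uptake were counted next. Of 10, 8 reached 10 CPM, and 3 of the 8 were at least 2-fold lower in germ cells and none higher, by the median over 6 libraries, where 25.8% and 18.8% of all genes were. Srebf2, the factor that drives the pathway, was at 56.6, 44.4, 11.2, 10.4, 10.9 and 15.01 CPM in germ cells from E12.5 to P5, and its levels from E16.5 on were below every pregranulosa value. Scap, its escort, took the other course, at 14.47, 21.7, 49.98, 39.5, 43.0 and 54.9 CPM in germ cells. Insig2, the second Insig protein, had a median log2 ratio of -1.33, and Mylip, a ubiquitin ligase, of -2.54. In pregranulosa cells the P5 to E12.5 log2 ratios of Stard4, a sterol carrier, Scap and Mylip were -1.43, 1.33 and 0.91. Over this span 1 of the 8 genes was at least 2-fold lower and 1 higher, where 6.03% and 8.55% of all genes were.

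Export and storage genes were lower in germ cells for all 7 of 10 that reached 10 CPM, 5 of them at least 2-fold, where 25.8% of all genes were. Soat1, which esterifies cholesterol for storage in droplets, was at 243, 309, 443, 484, 307 and 232 CPM in pregranulosa cells from E12.5 to P5 and 22.4 to 42.8 CPM in germ cells. Apoe, a carrier of cholesterol between cells, was at 174, 48.1, 24.6, 28.5, 12.9 and 15.8 CPM in germ and 227, 206, 242, 199.9, 322 and 120.4 CPM in pregranulosa cells. Npc2, a lysosomal sterol carrier, and Scarb1, the receptor for high-density lipoprotein, had median log2 ratios of -2.02 and -1.26. Abca1, a cholesterol exporter, Apoe and Npc2 differed between E12.5 and P5 in pregranulosa cells by 1.25, -0.92 and -0.48 on the log2 scale.

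Neighbouring lipid pathways were set beside the chain. Of the enzymes of other isoprenoid branches, 5 of 7 reached 10 CPM. None of the 5 differed 2-fold between germ and pregranulosa cells by the median, where 25.8% of all genes were lower and 18.8% higher. Among them Dhdds and Pdss2, of dolichol and ubiquinone synthesis, were at 0.98 and 0.53, and Ggps1, Fntb and Nus1 at -0.36, -0.71 and -0.35, with P5 to E12.5 values in pregranulosa cells of -0.24 for Pdss2, -0.32 for Fntb and -0.61 for Nus1. For fatty acid synthesis, 5 of 7 genes were at least 2-fold lower in germ cells and the median log2 ratio was -2.35, where 25.8% of all genes were lower and their median was -0.03. Scd2 and Fads1, fatty acid desaturases, were at -3.68 and -2.57, Me1, which supplies NADPH, at -2.60 and Elovl6, an elongase, at -2.35. Over age in pregranulosa cells the log2 ratios of Elovl6, Scd2 and Acaca, the first enzyme of the branch, were -1.23, 0.73 and -0.43. Of 5 steroid-producing genes 1 reached 10 CPM, Hsd3b1, at 8.83, 45.0, 105, 76.4, 75.7 and 291 CPM in pregranulosa cells from E12.5 to P5 and 0.526 to 4.38 CPM in germ cells.

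Division and dissociation genes moved with the classes and ages as well. The summed level of 8 division genes was 1498, 1152, 1394, 779, 1004 and 1265 CPM in germ cells from E12.5 to P5 and 185, 185, 118, 150.5, 251 and 106 CPM in pregranulosa cells. By the median over 6 libraries, 6 of the 8 were at least 2-fold higher in germ cells, where 18.8% of all genes were. Top2a and Birc5 had median log2 ratios of 4.64 and 4.25, and Ccnb1 and Mki67 of 4.14 and 3.55. The germ sums hide opposite courses of single genes. Between E12.5 and P5 in germ cells, 4 of the 8 were at least 2-fold lower and 2 higher, where 15% and 29.3% of all genes were. Top2a differed by -4.48 and Birc5 by 2.12 on the log2 scale. From E12.5 to P5 in pregranulosa cells, Ccnb1, Mcm6 and Top2a differed by -2.14, -1.60 and -1.12. The summed level of 9 genes known to respond to dissociation was 158, 260.4, 271, 378, 355 and 251 CPM in germ cells and 1563, 3611, 3567, 6946, 8289 and 6567 CPM in pregranulosa cells. All 9 were at least 2-fold lower in germ cells by the median, where 25.8% of all genes were. Jun, Hspa1a, Atf3 and Fos were at -4.55, -4.36, -4.30 and -4.22, and Junb, Hspa1a and Hspa1b differed by 3.06, 2.93 and 2.92 from E12.5 to P5 in pregranulosa cells. Their part in the levels of the 7 genes was not tested.

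The genes most like the summed level were looked for over 28 points, each a class in a library from E12.5 to P5, among 3079 genes of at least 50 CPM on average. On the scale of log2 CPM with 10 added, 1110008F13Rik (0.87), Ddt (0.79), Fkbp4 (0.77), Mta3 (0.77), Uba1 (0.76), Cops6 (0.76), Mrps12 (0.76), Timm13 (0.74), Akr7a5 (0.72) and Ubxn1 (0.71) had the highest Pearson correlations, given in brackets. Without E16.5, over 23 points, 1110008F13Rik was at 0.87, Metap2 at 0.80 and Uba1 at 0.79. The points share libraries, depth and cell classes, so these are descriptions. Among the 7 genes themselves over the same points, correlations ranged from -0.08 between Hmgcs1 and Fdft1 to 0.78 between Sqle and Idi1, with 0.78 also between Fdft1 and Insig1. Hmgcs1 and Idi1 were at 0.66, and Fdps and Fdft1 at 0.65. Over the 22 points that were not germ cells, the range was from 0.07 between Fdft1 and Lss to 0.90 between Fdft1 and Insig1. Hmgcs1 and Fdft1 were at 0.46 there, so the value below 0 depended on the germ points.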

How the data were processed

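Gene by cell matrices of UMI counts, deposited by the authors, were analysed for 7 libraries. According to the labels they came from 10x Genomics 3' libraries processed with Cell Ranger 3.1.0 on mm10. No values of the authors' own comparisons were used. Cells with fewer than 200 genes (1719 barcodes) were removed. Each library was clustered without the 7 genes (10 principal components, 30 neighbours, Leiden resolution 0.6, 111 clusters in all), and clusters were named from marker lists. Scrublet (scanpy 1.11.5) called 0.0848% to 4.81% of cells doublets per library. The lowest share was at E11.5, and whether doublets were missed there was not tested. No cell was removed as a doublet, and the 5% highest scores were left out in an alternative. UMIs were summed per library and class. Intervals are exact at 95% (Poisson for levels, conditional binomial for ratios, scipy 1.17.1). Those of ratios were tried on simulated Poisson counts, the model they assume, without variation between cells or libraries. This checks the calculation and not their fit to these data. A gene was measured at 10 CPM or more. UMI depth ran from 31960736 to 124390521 per library. The labels give 1 library per age, so groups are ages and no test between ages was possible. Class ratios were taken within each library and not tested across the 6 libraries.

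The 7 genes and the lists were chosen with earlier results of these data known. From each list the text names up to 4 genes with the largest absolute germ to pregranulosa log2 ratio and up to 3 with the largest P5 to E12.5 ratio in pregranulosa cells, and the 10 genes most correlated with the sum. Other genes named with values were chosen after their values were seen. Some genes of the lists are not reported here by name. Alternatives changed the clustering, cell filter, doublets, denominator, weighting, filter on low genes and members of the sum.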

Additional observations from a re-analysis of the deposited data

Results flagged for a closer look

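The ratio of germ to pregranulosa level lay on opposite sides of 1 at different ages, with counting intervals that excluded 1 on both sides, for the sum and for 6 of the 7 genes. Without E16.5 this held for the sum and for 4 genes, Fdps, Idi1, Sqle and Insig1. The share of all genes that changed side in this way was not counted, so these counts do not set the 7 genes apart. Each age is 1 library, so the difference between ages was not tested. The sum was at 1.58 at P5 and 0.291 at E16.5. Fdps was at 4.33 at E14.5 and 0.257 at E16.5, and Idi1 at 1.92 at E14.5 and 0.119 at P1. Sqle was at 1.73 at E12.5 and 0.409 at E18.5. Fdft1 was at 10.7 at P5 and 0.721 at E16.5. Lss was at 2.19 at E18.5 and 0.793 at E16.5. Insig1 was at 4.87 at P5 and 0.556 at E16.5. The low end of 5 of these 7 lay in the E16.5 library, which stood apart from the others.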

How the results depend on the processing

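No paired analysis was possible between ages because each age is 1 library with no second replicate number. Classes were compared within each library, and their ratios were not tested across libraries. Epithelium was below pregranulosa cells in 5 of 5 libraries, and in 2 of 2 with all libraries clustered together, 3 of 4 with classes from 2 marker genes per cell, and 3 of 5 without Hmgcs1. Endothelium was below in 5 of 5, and in 3 of 3 with 30 principal components, with marker genes, with a stricter cell filter (1000 genes, mitochondrial share up to 10%), or without the 5% highest Scrublet scores, since fewer libraries then had 50 cells. The libraries compared by marker genes included E11.5, which the main counts did not. They were E11.5, E14.5 and E16.5 for endothelium and E11.5, E12.5, E14.5 and P5 for epithelium. Leaving out E16.5, chosen after seeing the data, gave 13 of 35 pairs lower in germ cells. The P5 to E12.5 ratio of the sum in pregranulosa cells, 0.989, was 1.03 clustered together, 1.09 by marker genes, 0.913 without mitochondrial, ribosomal and haemoglobin genes in the total, 0.890 without Fdps and 0.941 without Hmgcs1. In germ cells it was 1.07, then 1.14 with 30 principal components, 1.16 with the stricter cell filter and 1.53 without Fdps. It turned to 0.935 with the reduced total, 0.914 with size factors and 0.675 as a mean of single cells. The germ ratio without Fdft1 or without Insig1, the genes that were higher at P5, is not given here. The E14.5 count of genes 2-fold lower in germ cells, 2216 of 8052, was 634 of 2811 at 50 CPM and 7855 of 21050 with 1 UMI. Single ratios of germ to pregranulosa cells that turned were the sum without Fdps at E14.5 (0.845), the sum without Hmgcs1 at P1 (1.51), Fdps at P1 under the stricter filter (1.10) and Fdps at P5 as a mean of single cells (0.650). Without Hmgcs1, epithelium at E12.5 was at 1.01 and endothelium at E14.5 at 1.02. Of 631 alternative values for single ratios, 456 moved by less than their counting interval, 169 by more and 6 turned. The causes were not tested. Counting depth limited Lss and endothelium.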
